A study of Mus musculus with 10 samples.

Results

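The genes described here encode the antigen-recognition machinery of T cells: the CD3 chains Cd3d, Cd3e and Cd3g, the zeta chain Cd247, the coreceptors Cd4, Cd8a and Cd8b1, the kinases Lck and Zap70, and the costimulatory receptor Cd28. They were taken by symbol from the authors' deposited expression table, and the line with the highest mean was used where a symbol had several (Cd28 had 2). All 10 symbols were found among 55020 lines, and all 10 had a mean of at least 1 FPKM (fragments per kilobase of transcript, scaled to the size of the library), the level required for testing. The tumours were HEPA1-6, a mouse hepatoma line, grown under the skin of C57/BL6 mice for 4 weeks, and their poly-A RNA was sequenced. The vehicle group held 5 tumours (replicates 1, 2, 3, 5 and 6) and the GSK343 group held 5 (replicates 1 to 5). GSK343 inhibits EZH2, the methyltransferase that places the repressive Polycomb mark on histone H3. The labels give no dose, and the 5 vehicle tumours were assigned by elimination, since their titles carry only the letter C. The protocol text also mentions a control antibody or an antibody against asialo-GM1, a glycolipid of natural killer cells and some T cells. No label says which tumour received which antibody, so effects of the antibody and of GSK343 on these genes cannot be told apart.

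T cells recognise peptides held by major histocompatibility complex (MHC) molecules. The receptor's own chains have almost no cytoplasmic part, so the signal passes through the CD3 and zeta chains, whose tyrosines are phosphorylated by Lck and then bind the kinase Zap70. CD4 binds MHC class II and marks helper and regulatory T cells, CD8 binds MHC class I and marks cytotoxic T cells, and both carry Lck to the receptor. In a tumour of liver cell origin these transcripts are taken to come from host cells that entered it, which was not tested. In bulk tissue, fewer T cells and less RNA per T cell cannot be told apart.

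Several of the genes are neighbours on the mm10 genome. Cd3g (chromosome 9, 44969572 to 44980431, minus strand) and Cd3d (chromosome 9, 44981786 to 44987339, plus strand) are transcribed away from each other from starts 1355 bases apart, and Cd3e (chromosome 9, 44998740 to 45009627, minus strand) is their neighbour. Cd8b1 (71322788 to 71337494) and Cd8a (71373427 to 71379173) follow each other on the plus strand of chromosome 6. Cd4 lies elsewhere on that chromosome (124864692 to 124888221, minus strand). Zap70 (36761798 to 36782818), Cd28 (60716800 to 60773359) and Cd247 (165788681 to 165877277) are spread along the plus strand of chromosome 1, and Lck (129548344 to 129573641, minus strand) is on chromosome 4. The deposited coordinates of all 10 were those of GENCODE release M21, in which each is a protein-coding gene. Exons of Cd3e overlap the antisense gene Gm48719 (mean 0.133 FPKM), and exons of Cd247 overlap Pou2f1 on the opposite strand (mean 2.54 FPKM) and Gm16565 (0.0963 FPKM). Without a stated strand setting, reads of Cd247 and Pou2f1 cannot be told apart where they overlap.

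The 250 bases before the starts of the 3 clustered CD3 genes and of Cd8a are shown because Cd3g, Cd3d and Cd8a had the highest correlations with Cd3e over the tumours, as given with the relations. The sequences are from RefSeq on GRCm38.p6, the assembly behind mm10, and read 5′ to 3′ on each gene's own strand. Capitals mark matches on either strand to CAGGTG (the E-protein motif), ATCAAAG (TCF/LEF), GGAAGT (ETS) or TGTGGT (RUNX), motifs of factor families that act in T cell development, chosen after the sequences were seen. The windows are chr9:44980432-44980681 for Cd3g, chr9:44981536-44981785 for Cd3d, chr9:45009612-45009861 for Cd3e and chr6:71373177-71373426 for Cd8a. The Cd3e start used differs from the GENCODE start by 16 bases. The last 16 bases of its window lie within the GENCODE gene, and its ETS match spans the GENCODE start.
Cd3g: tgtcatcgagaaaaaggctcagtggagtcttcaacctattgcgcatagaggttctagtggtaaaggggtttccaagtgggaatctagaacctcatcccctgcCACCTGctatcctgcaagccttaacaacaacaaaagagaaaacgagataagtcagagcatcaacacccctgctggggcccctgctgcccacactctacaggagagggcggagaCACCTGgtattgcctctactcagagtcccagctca
Cd3d: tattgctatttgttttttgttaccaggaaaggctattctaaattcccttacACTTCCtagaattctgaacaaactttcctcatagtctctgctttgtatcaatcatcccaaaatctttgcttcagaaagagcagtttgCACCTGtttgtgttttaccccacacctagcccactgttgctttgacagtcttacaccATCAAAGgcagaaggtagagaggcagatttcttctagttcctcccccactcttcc
Cd3e: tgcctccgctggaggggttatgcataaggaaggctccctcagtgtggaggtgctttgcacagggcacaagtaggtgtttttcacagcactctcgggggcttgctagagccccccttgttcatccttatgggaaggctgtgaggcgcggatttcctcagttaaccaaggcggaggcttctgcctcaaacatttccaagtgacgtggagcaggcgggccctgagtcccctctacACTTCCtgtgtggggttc
Cd8a: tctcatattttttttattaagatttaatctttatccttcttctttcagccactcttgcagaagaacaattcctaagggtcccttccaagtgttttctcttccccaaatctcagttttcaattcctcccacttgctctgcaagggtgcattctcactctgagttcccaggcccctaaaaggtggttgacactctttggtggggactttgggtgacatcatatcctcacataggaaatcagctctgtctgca
The Cd3g window holds 2 matches to the E-protein motif. The Cd3d window holds 1 match each to the E-protein, TCF/LEF and ETS motifs, the Cd3e window 1 ETS match, and the Cd8a window none of the 4. Promoters of 7 of the 10 genes were in the table used (also Cd247, Lck and Zap70), and E-protein matches stood in 4 of the 7, against 17.2% of 32851 promoter windows of the same length. ETS matches also stood in 4 of the 7 (19.7% of all windows), TCF/LEF in 1 (3.21%) and RUNX in 1 (14.0%). None of the motifs overlaps another in these windows, and a match is a description of the letters only.

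Transcripts of all 10 genes were present in every tumour, and their levels formed a steep order on the FPKM scale, which is corrected for length. Cd3g had the highest mean over the 10 tumours at 25.4 FPKM and exceeded Cd3e in 10 of 10 tumours. Then came 5 genes within a narrow range, Cd3e (10.8), Lck (10.7), Cd8a (10.2), Cd3d (9.79) and Cd8b1 (9.68 FPKM). Neighbours among these 5 were in that order in only 5 or 6 of 10 tumours, so neighbours among them did not differ beyond their spread. Zap70 (5.75 FPKM) lay below Cd8b1 in 9 of 10 tumours, and Cd247 (3.68 FPKM) lay below Zap70 in all 10. Cd4 (3.20 FPKM) was below Cd247 in 7 of 10 tumours, and Cd28 (1.86 FPKM) was lowest, below Cd4 in 9 of 10. Cd4 was below Cd247 in 5 of 5 vehicle tumours (means 1.76 and 2.74 FPKM) and in 2 of 5 GSK343 tumours (means 4.65 and 4.62 FPKM).

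After GSK343 each of the 10 genes had a higher mean and a log2 fold change above 0 (as had 47.6% of all lines tested), and none passed the test over all genes. The vehicle tumours fell into 4 low values and 1 high one for most of these genes, and the GSK343 tumours spread from the low values to above the high one. In limma 0 of 10 had a Benjamini-Hochberg adjusted p under 0.05 (0.0828% of the 14496 lines tested did in either direction, and 0.069% were higher). Unadjusted p under 0.05 was reached by 2 of 10, Cd3g and Cd4, both higher, against 10.7% of all lines higher in that way and 17.6% in either direction. The groups overlapped for all 10 (1.42% of all lines were higher without overlap and 1.2% lower). The median log2 fold change of the 10, on the log2(FPKM + 1) scale used for every fold change here, was 0.63, beside -0.01 over all lines tested.

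**Figure D1:**
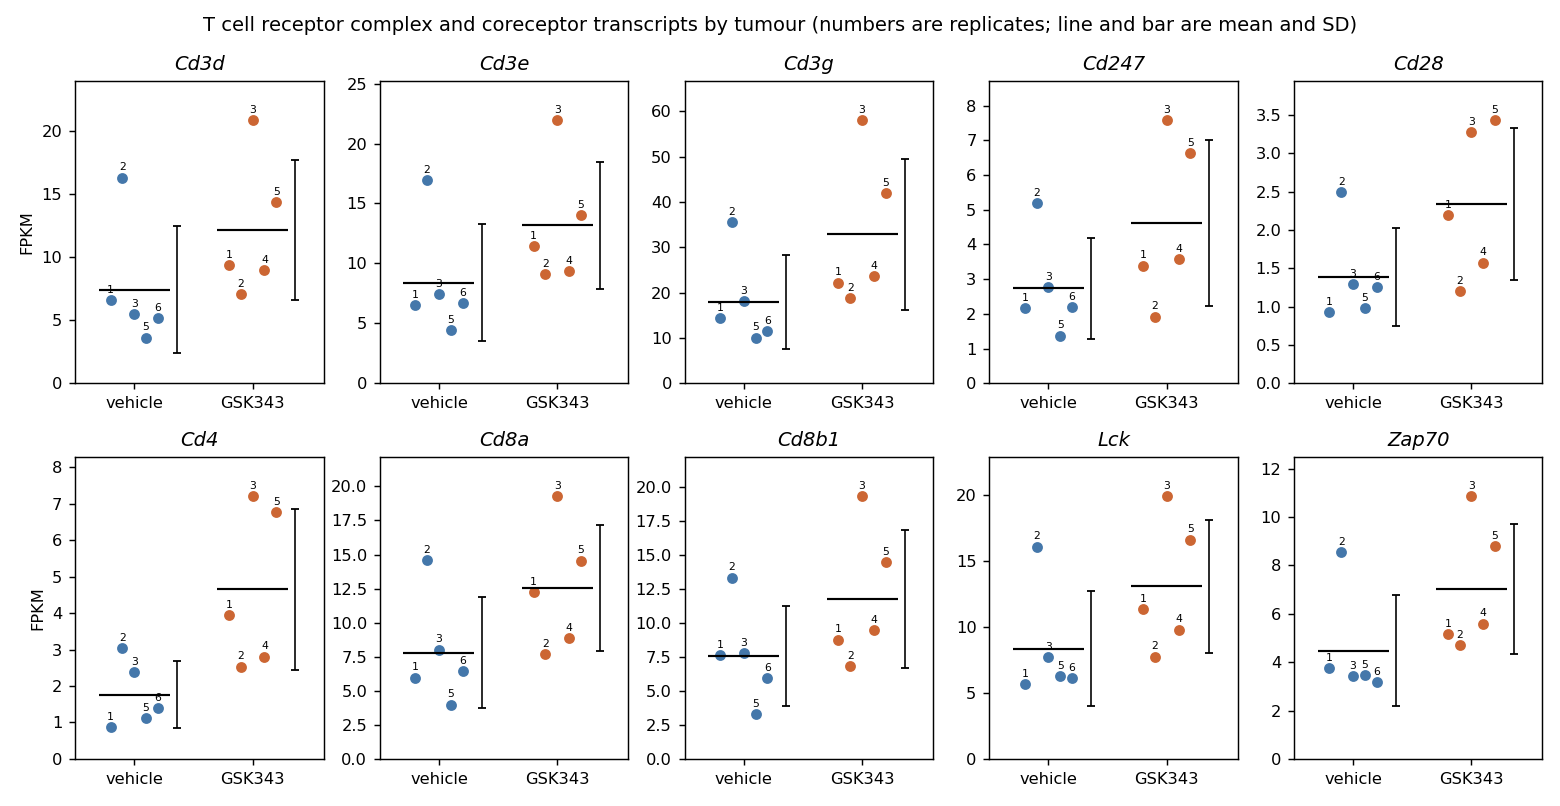
FPKM of each gene (vertical axes, each starting at 0) in 5 vehicle and 5 GSK343 tumours; points are tumours labelled by replicate number, the horizontal line is the group mean and the bar beside it the SD. Vehicle replicate 2 lies above the other vehicle tumours for every gene, and GSK343 replicates 3 and 5 lie highest or next to it among GSK343 tumours for every gene.

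The CD3 chains couple the receptor to the cell interior. Cd3e, the epsilon chain, measured 6.54, 17.0, 7.41, 4.45 and 6.66 FPKM in vehicle replicates 1, 2, 3, 5 and 6. It measured 11.4, 9.13, 21.9, 9.37 and 14.0 FPKM in GSK343 replicates 1 to 5. Every GSK343 tumour was above 4 of the 5 vehicle tumours, but only replicate 3 was above vehicle replicate 2. The means were 8.40 ± 4.91 and 13.2 ± 5.27 FPKM (SD, n = 5 per group), and the log2 fold change was 0.65 (SE 0.316, limma adjusted p = 0.317), with a 95% interval from -0.05 to 1.35.

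Cd3g, the gamma chain, measured 14.4, 35.5, 18.1, 10.1 and 11.6 FPKM in the vehicle tumours in the same order. In GSK343 tumours it measured 22.2, 18.8, 58.0, 23.6 and 42.0 FPKM. Here 2 GSK343 tumours, replicates 3 and 5, were above vehicle replicate 2. The means were 17.9 ± 10.3 and 32.9 ± 16.7 FPKM, with a log2 fold change of 0.85 (SE 0.374, limma adjusted p = 0.274). Cd3d, the delta chain, ranged from 3.62 to 16.3 FPKM in vehicle and from 7.09 to 20.9 FPKM in GSK343 tumours, with a log2 fold change of 0.71 (SE 0.362, limma adjusted p = 0.337). Cd247, whose zeta chain is also used by natural killer cells, ranged from 1.37 to 5.18 and from 1.92 to 7.58 FPKM. Its log2 fold change was 0.56 (SE 0.322, limma adjusted p = 0.393), and GSK343 replicate 2, at 1.92 FPKM, lay below 4 of the 5 vehicle tumours.

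The coreceptors differed from each other in size. Cd4 measured 0.865, 3.03, 2.39, 1.11 and 1.39 FPKM in the vehicle tumours. In GSK343 tumours it measured 3.94, 2.53, 7.21, 2.80 and 6.76 FPKM. Replicates 1, 3 and 5 were above every vehicle tumour, and replicates 2 and 4 were above all but vehicle replicate 2. Cd4 had the highest log2 fold change of the 10 genes, 1.01 (SE 0.293, 95% interval 0.36 to 1.65), and the smallest limma adjusted p, 0.192, which did not pass. Its group means differed 2.64-fold on the linear scale, since adding 1 before the logarithm understates the change of so low a gene.

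Cd8a, which forms the homodimer or pairs with CD8 beta, measured 5.97, 14.6, 8.03, 3.99 and 6.45 FPKM in vehicle tumours. It measured 12.2, 7.71, 19.3, 8.89 and 14.6 FPKM in GSK343 tumours. Only replicate 3 lay above vehicle replicate 2, and replicate 2 lay below vehicle replicate 3. The log2 fold change was 0.66 (SE 0.308, limma adjusted p = 0.298). Cd8b1, the beta chain found on conventional cytotoxic T cells, ranged from 3.29 to 13.3 and from 6.82 to 19.3 FPKM, with a log2 fold change of 0.59 (SE 0.3301, limma adjusted p = 0.374).

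The kinases and Cd28 also had higher means after GSK343. Zap70, which binds the phosphorylated CD3 and zeta chains, measured 3.75, 8.56, 3.43, 3.46 and 3.18 FPKM in vehicle tumours. It measured 5.15, 4.72, 10.9, 5.60 and 8.81 FPKM in GSK343 tumours. The 4 vehicle tumours other than replicate 2 lay within 3.18 to 3.75 FPKM, below every GSK343 tumour. Its log2 fold change was 0.57 (SE 0.2698, limma adjusted p = 0.305). Lck, the Src-family kinase that starts the cascade, ranged from 5.68 to 16.1 FPKM in vehicle and from 7.73 to 19.9 FPKM in GSK343 tumours (log2 fold change 0.61, SE 0.2998, limma adjusted p = 0.318). Cd28, the receptor for CD80 and CD86 on antigen-presenting cells, ranged from 0.925 to 2.49 and from 1.21 to 3.43 FPKM (log2 fold change 0.46, SE 0.227, limma adjusted p = 0.319).

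The size of these differences depended on which tumours were included. Without vehicle replicate 2 the median log2 fold change of the 10 was 0.87, and all 10 had an unadjusted limma p under 0.05 (13.3% of all lines were called higher in that way in the same fit). None passed after adjustment there either (smallest limma adjusted p = 0.0636, for Cd4). In that comparison 6 of the 10, namely Cd3d, Cd3e, Cd3g, Cd4, Lck and Zap70, were higher without overlap, against 5.82% of all lines. Vehicle replicate 2 was the highest vehicle tumour for each of the 10 genes. Leaving it out was therefore bound to raise their fold changes and could only reduce overlap. The shares over all lines carry no such choice, so these counts are no separate evidence of a difference. GSK343 replicates 3 and 5 had mitochondrial transcripts at 7.17% and 7.11% of the FPKM sum, against 2.63% to 5.05% in the other tumours. They also held the highest values of these genes in the GSK343 group, so leaving both out was bound to lower the fold changes. Without both, the median log2 fold change of the 10 was 0.30, 1 of 10 (Cd4, at 0.62) had an unadjusted limma p under 0.05 (4.81% of all lines were called higher), and the smallest limma adjusted p was 0.749. The part of RNA quality in the result was not tested. Leaving out vehicle replicate 2 together with these tumours gave a median of 0.55, with 7 of 10 at an unadjusted p under 0.05 (9.25% of all lines), an alternative chosen after the data were seen.

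Leukocyte transcripts as a whole varied with the T cell genes. The 12 pan-leukocyte genes, such as Coro1a and Laptm5, had 11 members with a log2 fold change above 0 and a median of 0.70. Their summed level ranged from 352 to 934 FPKM in vehicle tumours, with the highest in replicate 2, and from 645 to 1067 FPKM in GSK343 tumours. With the mean log2 level of that list as a covariate, the log2 fold change of Cd4 was 0.31 and those of the other 9 genes lay between -0.16 and -0.032 (smallest limma adjusted p = 0.947). T cells are themselves leukocytes and the list was higher in mean after GSK343, so this covariate could take up part of the difference. Cd3e made up 1.18% to 1.86% of the pan-leukocyte sum in vehicle tumours and 1.31% to 2.07% in GSK343 tumours, ranges that overlap. Cd4 made up 0.246% to 0.422% in vehicle and 0.389% to 0.680% in GSK343 tumours.

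**Figure D2:**
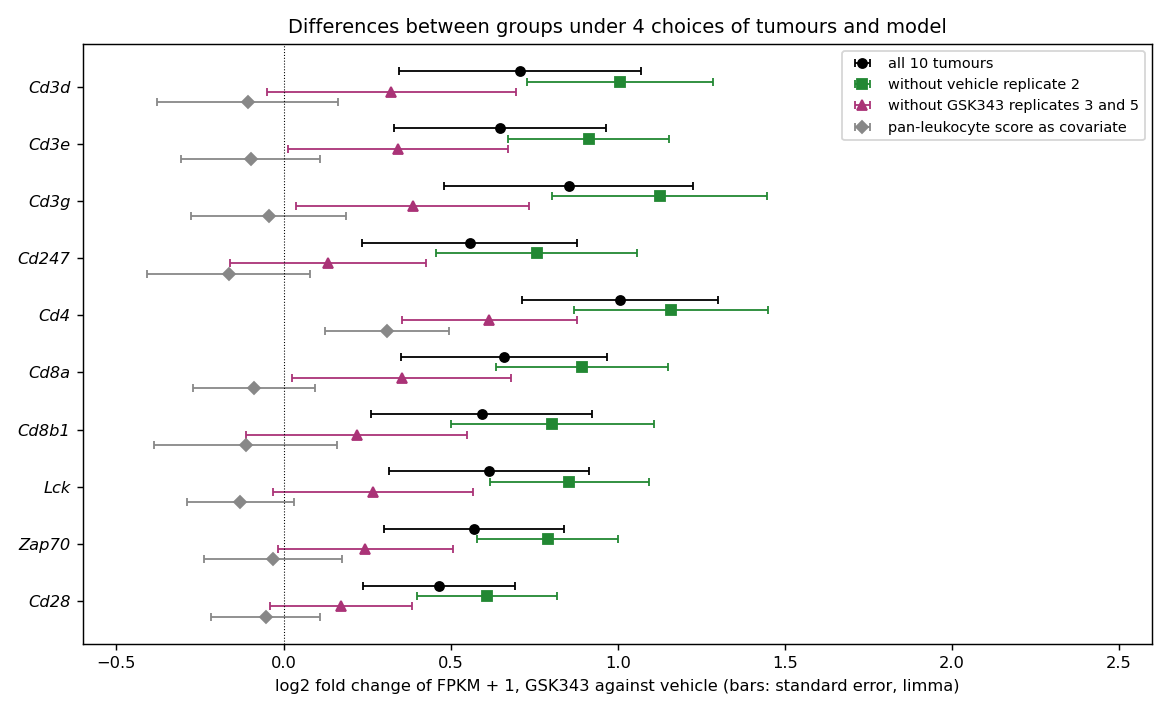
Log2 fold change of FPKM + 1, GSK343 against vehicle (horizontal axis), for each gene, with bars of 1 standard error from limma; the 4 symbols are all tumours, the fit without vehicle replicate 2, the fit without GSK343 replicates 3 and 5, and the fit with the pan-leukocyte score as covariate. With the covariate 9 genes lie just below 0 and Cd4 lies at 0.31.

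Within a tumour, the ratio of Cd4 to Cd8a was higher in mean after GSK343. The ratio of Cd4 to Cd8a was 0.145, 0.208, 0.297, 0.279 and 0.216 in vehicle replicates 1, 2, 3, 5 and 6. It was 0.322, 0.328, 0.374, 0.315 and 0.465 in GSK343 replicates 1 to 5. Every GSK343 tumour was above every vehicle tumour, although the gap between vehicle replicate 3 and GSK343 replicate 4 was small. Among single lines tested, 1.42% were higher without overlap and 1.2% lower, and such a share was not computed for ratios. The means were 0.229 ± 0.0609 and 0.361 ± 0.0624 (SD, n = 5 per group), a 1.61-fold difference of geometric means (log2 difference 0.68, SE 0.211). The exact two-sided permutation p was 0.00794, the smallest that 5 tumours against 5 can give, and 0.0873 after Benjamini-Hochberg adjustment over the 11 ratios compared, which did not pass.

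The log2 difference of the Cd4 to Cd8a ratio ranged from 0.53 (without vehicle replicate 1) to 0.79 (without vehicle replicate 3) when single tumours were left out, and was 0.54 without GSK343 replicates 3 and 5. Groups that do not overlap stay apart in any such subset, so that separation is no sign of stability. Vehicle replicate 2, with 17.0 FPKM of Cd3e, had a ratio of 0.208, below every GSK343 tumour. Adding 1 FPKM to both genes, a large amount beside the Cd4 values, reduced the log2 difference to 0.35 and ended the separation (exact permutation p = 0.0873).

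Relative to Cd3e, neither Cd4 nor the other 8 genes showed a difference that passed, though ratios varied between tumours. Cd247 to Cd3e, for example, ran from 0.305 to 0.375 in vehicle and from 0.211 to 0.474 in GSK343 tumours. Apart from that of Cd4, the 8 ratios to Cd3e differed between the groups by 0.964-fold to 1.13-fold. Their log2 differences ran from -0.05 to 0.17, with standard errors from 0.0879 to 0.203 (exact permutation p = 0.262 to 0.976). Cd8a to Cd3e was 0.944 ± 0.0870 in vehicle and 0.957 ± 0.0981 in GSK343 tumours. Cd3d to Cd3e was 0.860 ± 0.120 and 0.907 ± 0.105, and Cd3g to Cd3e 2.15 ± 0.261 and 2.43 ± 0.433. The ratio of the CD8 chains, Cd8b1 to Cd8a, was 0.980 ± 0.175 and 0.932 ± 0.137 (exact permutation p = 0.667). Cd4 to Cd3e was 0.219 ± 0.0721 in vehicle and 0.347 ± 0.0806 in GSK343 tumours, 1.63-fold (exact permutation p = 0.0238, adjusted 0.131), with overlap through vehicle replicate 3 at 0.322. Both Cd4 ratios use the same Cd4 values, so they are not separate evidence.

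**Figure D3:**
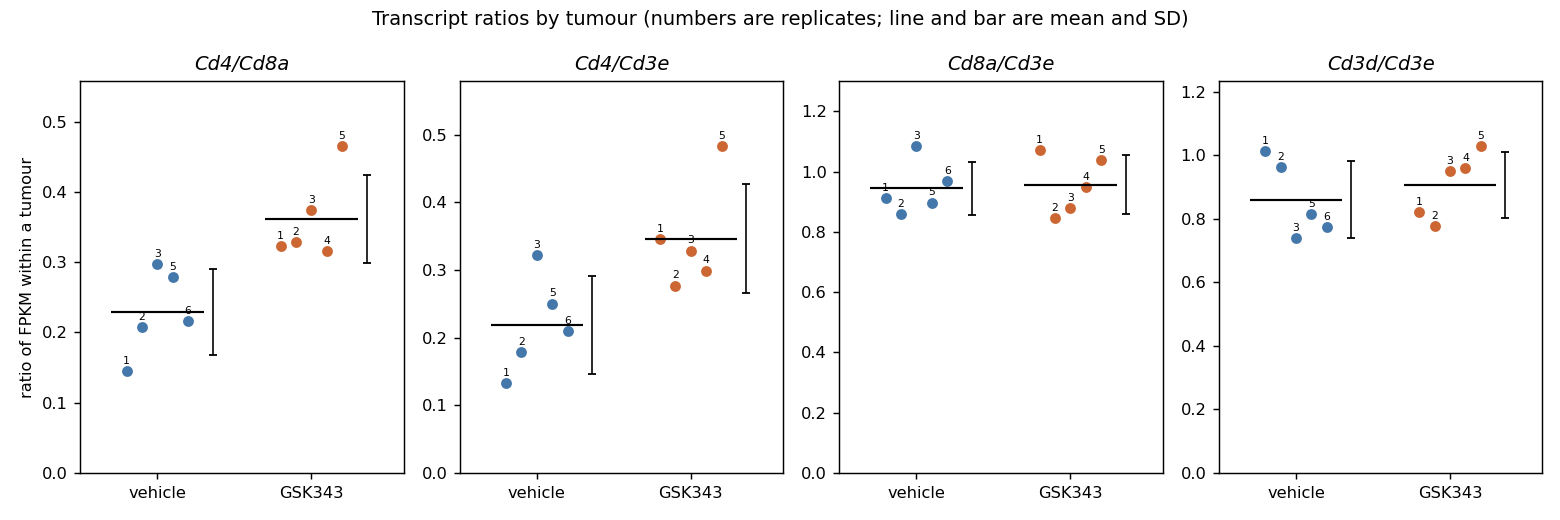
Ratio of FPKM within each tumour (vertical axes from 0) for 4 pairs of genes; points are tumours labelled by replicate number, with the group mean as a line and the SD as a bar. The 5 GSK343 tumours lie between 0.315 and 0.465 for Cd4/Cd8a, above the vehicle range of 0.145 to 0.297, while Cd8a/Cd3e and Cd3d/Cd3e overlap.

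Across the 10 tumours the levels of the genes were closely related. Of 10 relations computed, Cd8a with Cd3e had a Pearson r of 0.982 and a Spearman rho of 0.988 (permutation p = 1e-05 for both, the smallest that 100000 draws can give; adjusted 5e-05 and 0.0001). Without GSK343 replicate 3 and vehicle replicate 5, the tumours farthest from the median of Cd3e, r was 0.963, and for residuals from the group means it was 0.975. Cd3d (r = 0.981, rho = 0.964, permutation p = 1e-05 and 5e-05) and Cd3g (r = 0.965, rho = 0.964, permutation p = 2e-05 for both) came next in their Pearson r with Cd3e. Lck reached r = 0.952 and rho = 0.952, Cd8b1 0.947 and 0.915, Zap70 0.943 and 0.879, Cd247 0.929 and 0.903, and Cd28 0.911 and 0.915. Cd4 had the lowest Pearson r with Cd3e, 0.874 (rho = 0.952, permutation p = 0.00106 and 0.00011), which was 0.780 without the same pair of tumours and 0.837 for residuals. Cd4 with Cd8a gave r = 0.914 and rho = 0.939 (permutation p = 0.00024 and 0.00025). The adjusted permutation p of all 10 relations was at most 0.00106 for r and 0.00161 for rho. A difference between these correlations was not tested.

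**Figure D4:**
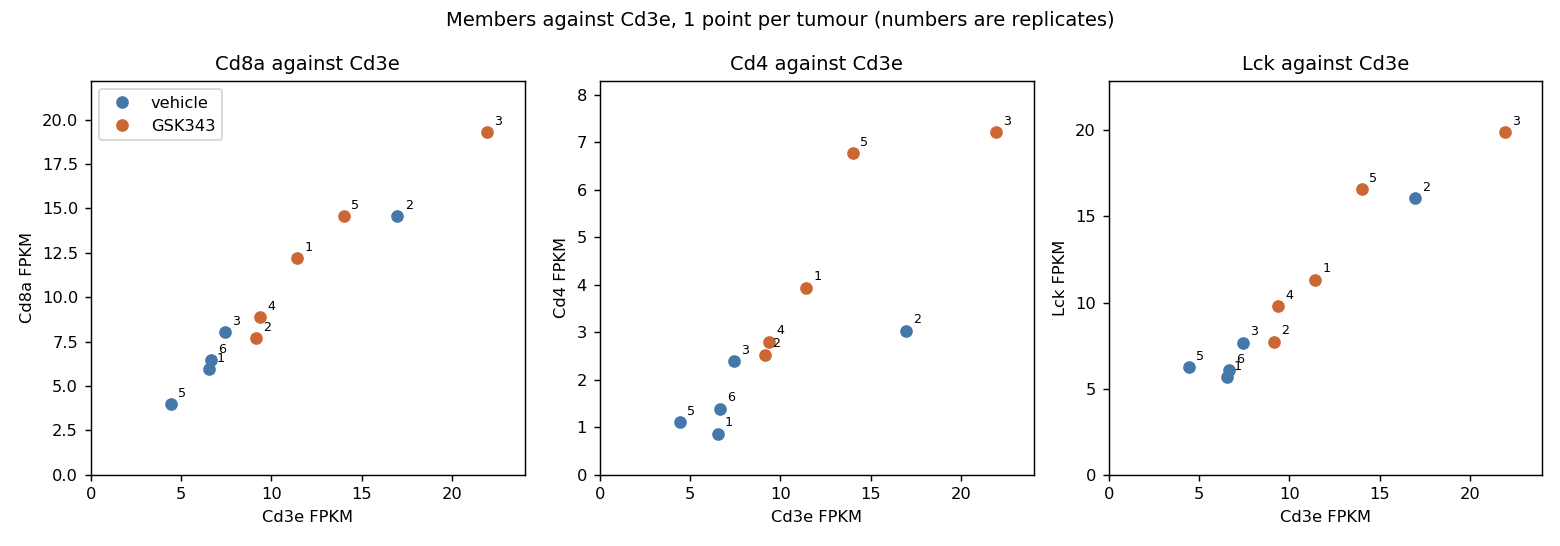
FPKM of Cd8a, Cd4 and Lck (vertical axes) against FPKM of Cd3e (horizontal axis), 1 point per tumour labelled by replicate number and coloured by group. Cd8a and Lck lie near a line through both groups, while vehicle replicate 2, at 17.0 FPKM of Cd3e, had 3.03 FPKM of Cd4 and GSK343 replicate 5, at 14.0, had 6.76.

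The genes closest to each receptor gene over the 10 tumours were found among 11506 named genes by Pearson r, given here as a measure of likeness without a test. For Cd3e they were Cd5, an inhibitory receptor of T cells (r = 0.982, rho = 0.988), Ccl4, a chemokine (0.974 and 0.988), Eif2s3y, a Y-linked translation factor (0.971 and 0.976), and Cd27, a costimulatory receptor (0.967 and 0.939). For Cd8a they were Cst7, a cystatin of cytotoxic cells (0.982 and 0.976), Fli1, an ETS factor of blood and endothelial cells (0.977 and 0.976), Eif2s3y (0.975 and 0.952) and Gimap3, a lymphocyte GTPase (0.972 and 0.976). For Cd4 they were Slco3a1, an anion transporter (0.990 and 0.964), Plek, the leukocyte and platelet protein pleckstrin (0.989 and 0.939), Fam49a (0.988 and 0.891) and Wipf1, a partner of the Wiskott-Aldrich protein (0.988 and 0.952). No gene was among the nearest 4 of both Cd4 and Cd8a. Lists this short say little about likeness, and Cd4 with Cd8a themselves gave r = 0.914.

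Most other genes of the receptor pathway were also higher in mean without passing. Of the T cell receptor chain constant genes, Trac, the alpha chain, measured 24.4 ± 10.6 and 44.0 ± 18.1 FPKM (log2 fold change 0.83, limma adjusted p = 0.226). Trbc1 measured 17.3 ± 5.37 and 28.4 ± 9.82 FPKM (0.66, adjusted p = 0.221), and Trbc2 34.2 ± 16.4 and 48.0 ± 19.4 FPKM (0.49, adjusted p = 0.433). The beta constant genes are near-identical copies, so their split is uncertain. Trdc, the delta chain, measured 1.34 ± 0.251 and 1.27 ± 0.156 FPKM.

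Of 40 proximal signalling genes 34 were tested, and none passed after adjustment. Their median log2 fold change was 0.41, with 11 higher and 1 lower at an unadjusted limma p under 0.05 (10.7% and 6.86% of all lines). Ptprc, the CD45 phosphatase that keeps Lck active and is found on all leukocytes, measured 1.74, 4.99, 7.22, 2.36 and 2.63 FPKM in vehicle tumours. It measured 23.2, 7.97, 27.5, 5.60 and 31.0 FPKM in GSK343 tumours (log2 fold change 1.93, SE 0.482, limma adjusted p = 0.191). Vehicle replicate 2 did not stand out for this gene. Lcp2, the adaptor SLP-76, measured 8.98 ± 3.84 and 15.8 ± 3.76 FPKM, and Cd6, a receptor of T cells, 2.41 ± 0.794 and 5.28 ± 2.26 FPKM (limma adjusted p = 0.192 for both).

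Costimulatory receptors had a median of 0.75 over 8 tested of 11, with 5 higher at an unadjusted limma p under 0.05 (10.7% of all lines, the share to read beside each such count here) and none after adjustment. Tnfrsf4, the receptor OX40, measured 3.79 ± 2.05 and 7.999 ± 2.75 FPKM. Tnfrsf18, the receptor GITR, measured 4.49 ± 1.42 and 7.86 ± 2.25 FPKM (limma adjusted p = 0.192 for both), and Slamf6 0.908 ± 0.617 and 2.96 ± 1.82 FPKM (adjusted p = 0.202). Their ligands had a median of 0.69 over 7 tested of 9, with 4 higher at an unadjusted p under 0.05. Cd86, a partner of Cd28, averaged 3.88 ± 1.87 FPKM with vehicle and 8.38 ± 1.55 FPKM with GSK343 (adjusted p = 0.189 in limma). Cd80, the other partner, had means of 1.64 ± 0.850 and 3.34 ± 0.864 FPKM (adjusted p = 0.196). Icosl measured 2.08 ± 0.896 and 3.17 ± 0.548 FPKM (adjusted p = 0.231). The MHC genes read by the coreceptors had 6 of 6 above 0, with a median of 0.87 and 5 at an unadjusted p under 0.05. Among them H2-Eb1 measured 552 ± 283 and 931 ± 144 FPKM and H2-Aa 589 ± 329 and 1053 ± 244 FPKM (limma adjusted p = 0.202 for both), both class II chains, and B2m, the light chain of class I, 2601 ± 298 and 3320 ± 476 FPKM (adjusted p = 0.210).

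Transcription factors of the T lineage were mixed in direction. Of 15, 9 were tested, 3 had a log2 fold change above 0, and the median was -0.08. Of the 6 below the level required for testing, 5 had a higher mean in GSK343 tumours. At an unadjusted limma p under 0.05, 2 were higher and 2 lower (10.7% and 6.86% of all lines). Runx3, which supports the cytotoxic lineage and silences Cd4, measured 2.38 ± 0.942 and 3.79 ± 0.722 FPKM (log2 fold change 0.54, limma adjusted p = 0.215). Zbtb7b, which encodes ThPOK, the factor of the CD4 lineage, measured 18.5 ± 1.66 and 16.1 ± 0.537 FPKM (-0.19, limma adjusted p = 0.222). It was lower without overlap, as were 1.2% of all lines. Its level lay far above that of Cd4, whose means were 1.76 and 4.65 FPKM. In vehicle replicate 2 it was 17.5 FPKM, within the range of the other vehicle tumours. Tcf7, with means of 48.9 and 45.1 FPKM, also lay far above Cd3e (8.40 and 13.2 FPKM). Which cells carry Zbtb7b, Tcf7 or the other factors was not tested. Bcl11b, which T cells need throughout their development, was below the level required for testing, at 0.401 ± 0.236 and 0.606 ± 0.275 FPKM.

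Most tested genes in the marker lists of other immune cells also had a log2 fold change above 0. The natural killer list, whose cells share Cd247 and in part Lck and Zap70, had 8 of 9 tested genes above 0 (median 0.77) and summed to 39.9 to 119 FPKM in vehicle and 54.8 to 174 FPKM in GSK343 tumours. Its defining receptor Ncr1 was low, at 0.2996 ± 0.150 and 0.726 ± 0.504 FPKM. The dendritic cell list, of which some subsets carry Cd4 or Cd8a, had 7 of 7 tested genes above 0 (median 0.59) and summed to 27.0 to 90.1 and 58.8 to 106 FPKM. The macrophage and monocyte list had 13 of 13 tested genes above 0 (median 0.93) and summed to 485 to 1896 and 1080 to 2196 FPKM. The B and plasma cell list had 4 of 5 tested genes above 0 and summed to 5.43 to 273 and 13.3 to 1132 FPKM. No list had a gene at 0 in every tumour, and the part of these cells in the levels of Cd4, Cd8a and Cd247 was not tested.

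The tumours carried the markers of their labelled origin, with Afp at 2085 and 1775 FPKM and Alb at 3129 and 2810 FPKM in vehicle and GSK343 tumours. The 12 liver tumour genes summed to 9159 to 13137 FPKM in vehicle and 8964 to 10494 FPKM in GSK343 tumours, with a median log2 fold change of -0.18. Of these 12, 2 had a log2 fold change above 0. At an unadjusted limma p under 0.05, 3 were lower (6.86% of all lines) and 0 higher, and none passed after adjustment.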

How the data were processed

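Poly-A RNA of 10 tumours was measured, 5 per condition and described as biological replicates in the series' design text. The authors' deposited table holds a value per gene and tumour that was read as FPKM from the values themselves: the header names no unit, and column sums run from 574547 to 623397. The submitters' processing notes name mm10, StringTie 1.3.3b, HISAT2 2.1.0 and Trimmomatic 0.33. Options, annotation release and strand are not given in the sources used. Weak steps in the low values would correspond to 38.5 to 50.9 M reads per tumour, an inference only, so no counting interval is given.

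Log2(FPKM + 1) of the 14496 lines averaging 1 FPKM or more was tested by limma 3.58.1 in R 4.3.3, two-sided, with a trend on intensity and Benjamini-Hochberg adjustment over all these lines; the script was tested on simulated data. Ratios within a tumour, with no pseudocount, were compared by an exact permutation test over 252 assignments (SciPy 1.17.1), adjusted over 11 ratios. Relations used 100000 permutations. Alternatives changed the filter, pseudocount, scaling, trend, tumour weights, covariate, block or tumours included. Named were the 10 members, up to 3 genes of smallest p per pathway list, and the 4 genes most like Cd3e, Cd4 and Cd8a (no predicted genes, pseudogenes or receptor segments); others named are markers or were chosen after their values were seen. The members and lists were chosen with earlier results of these data known. Trgc1, Trgc2 and Trgc4 are not analysed here. A further gene that the rule names is not reported here. Figures were drawn with matplotlib 3.10.9.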

Additional observations from a re-analysis of the deposited data

Results flagged for a closer look

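Vehicle replicate 2 stood far from the other vehicle tumours for 5 of the 10 genes, by the distance of the highest value from the next as a share of the group's range. Zap70 was 8.56 FPKM in that tumour, against 3.18 to 3.75 FPKM in the other vehicle tumours. Lck was 16.1 FPKM, against 5.68 to 7.68 FPKM. Cd3e was 17.0 FPKM, against 4.45 to 7.41 FPKM, and Cd3d was 16.3 FPKM, against 3.62 to 6.62 FPKM. Cd28 was 2.49 FPKM, against 0.925 to 1.29 FPKM. In all 42 groups of 5 values were examined, from the 10 genes and the 11 ratios. Chance marks about 1 in 20 of such groups if values are normally distributed. The distances were taken on FPKM and ratios without logarithm, and were not computed on the log2 scale. The 5 values come from 1 tumour and from genes that move together, so they count as 1 event. None of the 11 ratios stood out in this way in any tumour. Pan-leukocyte transcripts were also highest in vehicle replicate 2 among vehicle tumours, at 934 FPKM against 352 to 565 FPKM, and its Ptprc, at 4.99 FPKM, lay within the range of the others.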

How the results depend on the processing

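None of the 10 genes passed the adjusted threshold of limma under any of the 22 alternatives, and all 10 were above 0 in 21 of them. With the pan-leukocyte covariate 9 were below 0: Cd3d -0.11, Cd3e -0.10, Cd3g -0.045, Cd247 -0.16, Cd8a -0.088, Cd8b1 -0.11, Lck -0.13, Zap70 -0.032 and Cd28 -0.053 (log2 fold changes). Their standard errors ran from 0.160 to 0.273, and each value lay closer to 0 than its standard error. The cause of the change was not tested. With tumour weights all 10 had an unadjusted limma p under 0.05 (13.1% of all lines were called higher). Over all lines, 12 were called. The count was 6 without a filter, 7 with quantile normalization, 2 with the pan-leukocyte covariate, 4 without both GSK343 replicates 3 and 5, and 3 to 98 when single tumours were left out, with 98 without vehicle replicate 2 and 37 without GSK343 replicate 1. The shared replicate numbers did not pair the tumours: deviations of same-numbered tumours correlated at -0.11, -0.33, 0.03 and -0.19, and no vehicle tumour correlated best with its own number. With the replicate number as a block 2 lines were called, against 5 without it in the same 8 tumours. In the block the Cd4 to Cd8a log2 difference was 0.72 (exact sign-flip permutation p = 0.125, the smallest that 4 pairs can give), and 0 of the 10 other ratios had a p under 0.05, against 1 (Cd4 to Cd3e) in the main comparison. The Cd4 to Cd8a log2 difference was 0.35 with 1 FPKM added, and 0.53 to 0.79 when single tumours were left out. The number of other ratios with a p under 0.05 was 0 with 1 FPKM added and 0 without both GSK343 replicates 3 and 5. Ratios to Cd3e near 0 on the log2 scale changed sign. Cd247 was -0.0091 with 0.1 added, -0.091 with 1 added, -0.19 without both GSK343 replicates 3 and 5, -0.048 in the block and -0.13 to 0.17 with single tumours left out. Cd28 was -0.023 with 0.1 added, -0.18 with 1 added, -0.085 without both tumours and -0.11 to 0.11 with single tumours left out, and Cd3d was -0.0084 without both. With single tumours left out Cd8a ranged from -0.025 to 0.068, Cd8b1 from -0.13 to 0.037, Lck from -0.11 to 0.073, Zap70 from -0.10 to 0.086, and Cd8b1 to Cd8a from -0.13 to 0.031. The 10 relations kept a permutation p under 0.05 in all 11 alternatives. The depth behind each value is not known, so counting error was not measured.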

Other observations

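Y-linked genes were looked at after Eif2s3y was found near Cd3e. Eif2s3y measured 3.16, 8.41, 4.89, 2.69 and 3.79 FPKM in vehicle replicates 1, 2, 3, 5 and 6 and 7.50, 6.21, 12.5, 5.75 and 9.13 FPKM in GSK343 replicates 1 to 5. Vehicle replicate 2 and GSK343 replicate 3 were the highest of their groups, as for Cd3e, which did not hold for the other Y-linked genes in both groups. Ddx3y, another broadly expressed Y-linked gene, ranged from 1.66 to 6.46 FPKM in vehicle tumours, with the highest in replicate 2, and from 3.04 to 8.10 FPKM in GSK343 tumours, with the highest in replicate 5. Kdm5d ranged from 0.195 to 0.538 FPKM (highest in vehicle replicate 2) and from 0.319 to 1.14 FPKM (highest in GSK343 replicate 5, with 0.422 in replicate 3). Uty ranged from 0.212 to 0.530 FPKM (highest in vehicle replicate 3) and from 0.454 to 1.29 FPKM (highest in GSK343 replicate 5).

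Foxp3, which defines regulatory T cells of the CD4 lineage, fell below the level required for testing and is named after its values were seen. It measured 0.0969, 0.206, 0.234, 0.184 and 0.324 FPKM in vehicle tumours and 1.29, 0.937, 1.596, 0.379 and 1.24 FPKM in GSK343 tumours. Every GSK343 tumour was above every vehicle tumour, though GSK343 replicate 4 was close to vehicle replicate 6. Of all lines tested, 1.42% were higher without overlap, a share that does not cover genes as low as Foxp3. The vehicle values were low, at most 0.324 FPKM, and a link to the Cd4 to Cd8a ratio was not tested.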
